A study of Homo sapiens with 20 samples.

Results

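Cytosolic ribosomal protein genes encode the proteins that, with ribosomal RNA, build the large and small subunits of the ribosome in the cytoplasm. They are among the most abundant messages of growing cells, and their products are needed in fixed proportions, so their transcripts are known to be kept at related levels. Many of their messages begin with a run of pyrimidines that couples translation to nutrient signalling through mTOR and LARP1, and free ribosomal proteins such as RPL5 and RPL11 can bind MDM2 and so stabilise p53. A few members have a second copy, or paralog, of low or tissue-restricted expression that can take the place of the main protein.

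Members were chosen by symbol: the RPL and RPS series, the stalk genes RPLP0, RPLP1 and RPLP2, and RPSA, with pseudogenes left out. The rule took 83 of the 24222 entries of the gene table, 51 for the large and 32 for the small subunit. Of these, 76 are termed core members here, and 7 are paralogs (RPL3L, RPL7L1, RPL10L, RPL22L1, RPL26L1, RPL39L and RPS27L). They were listed beforehand as of restricted or low expression, and restricted paralog is used here as a label only. RPL7L1, RPL22L1, RPL26L1 and RPS27L had counts in all lines, at no less than 6.85, 5.82, 5.82 and 14.5 CPM. RPL36A had no entry of its own, and RPL36AL, FAU and RACK1 fall outside the rule. The low-level limit, a median of 5 counts per M counts (CPM, with M for mega) over the lines, was passed by 81 members, the exceptions being RPL3L and RPL10L.

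RNA was sequenced from 20 established human biliary tract cancer cell lines, untreated and with 1 poly(A)-selected library per line, so every spread is between lines. The site groups were gallbladder (NOZ, G415, OCUG-1, TGBC2TKB, TGBC14TKB, SNU-308 and Mz-ChA-2; n = 7), extrahepatic bile duct (EGI-1, Sk-ChA-1, SNU-1196, SNU-245 and TFK-1; n = 5), intrahepatic bile duct (HuCCT1, HuH28, SNU-1079 and TKKK; n = 4) and ampulla of Vater (SNU-478, SNU-869 and TGBC18TKB; n = 3). OZ carries labels of the intrahepatic and the extrahepatic duct and entered no site comparison. By origin, 13 lines came from primary tumours and 7 from metastatic material (6 ascites, 1 liver). All were grown in the same serum-supplemented medium, and a tumour site is represented only by lines adapted to culture. Totals ran from 10.47 to 15.41 M counts. Of 6 epithelial markers, KRT8 and KRT18 exceeded 10 CPM in 20 of 20 lines. KRT19 did so in 19, KRT7 in 18, EPCAM in 17 and CDH1 in 15. HuH28 was lowest in EPCAM (0.257 CPM) and KRT19 (1.03 CPM), Mz-ChA-2 in KRT7 (0.233 CPM) and OCUG-1 in CDH1 (0.699 CPM). Of 6 fibroblast genes, COL1A1 exceeded 10 CPM in 15 lines, LUM in 3, DCN in 2, COL1A2 and COL3A1 in 1 each and PDGFRB in 0. HuH28 had the highest COL1A1 (7970 CPM), COL3A1 (588) and DCN (49), TGBC2TKB the highest COL1A2 (16.8) and LUM (90.6), and Mz-ChA-2 the highest PDGFRB (8.17). The leukocyte genes PTPRC and CD3E were at 0 in 14 and 13 lines and nowhere above 1.32 CPM, and the monocyte gene CD14 exceeded 10 CPM in 3 lines, with 12.9 at most. The hepatocyte genes TTR and APOA2 reached 469 and 102 CPM in Mz-ChA-2 and were at 0 in 14 and 16 lines, and ALB and CYP3A4 stayed under 10 CPM.

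The members held a median of 2.32% of a line's counts. SNU-245 had the largest share at 4.68% (exact binomial 95% interval 4.668 to 4.693), followed by SNU-1196 at 4.42%, NOZ at 3.83%, OZ at 3.47% and SNU-478 at 3.28%. HuH28 had the smallest at 1.23% (1.226 to 1.238), below EGI-1 at 1.59% and TGBC14TKB at 1.63%. These intervals cover counting error only and are far narrower than the differences between lines. In such bulk libraries, fewer expressing cells and less RNA per cell cannot be told apart. The share was 3 ± 1.43% in extrahepatic lines (SD, n = 5), 2.63 ± 0.737% in ampullary lines (n = 3), 2.37 ± 0.724% in gallbladder lines (n = 7) and 2.13 ± 0.653% in intrahepatic lines (n = 4). Neighbours in that order overlapped. The extrahepatic group held both the 2 highest shares and the second lowest. Metastatic lines had 2.73 ± 0.68% (n = 7) and primary lines 2.5 ± 1.06% (n = 13). By the repository that supplied the lines, the range of means was from 1.91% for DSMZ (n = 2) to 3.04% for KCLB (n = 6).

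**Figure D1:**
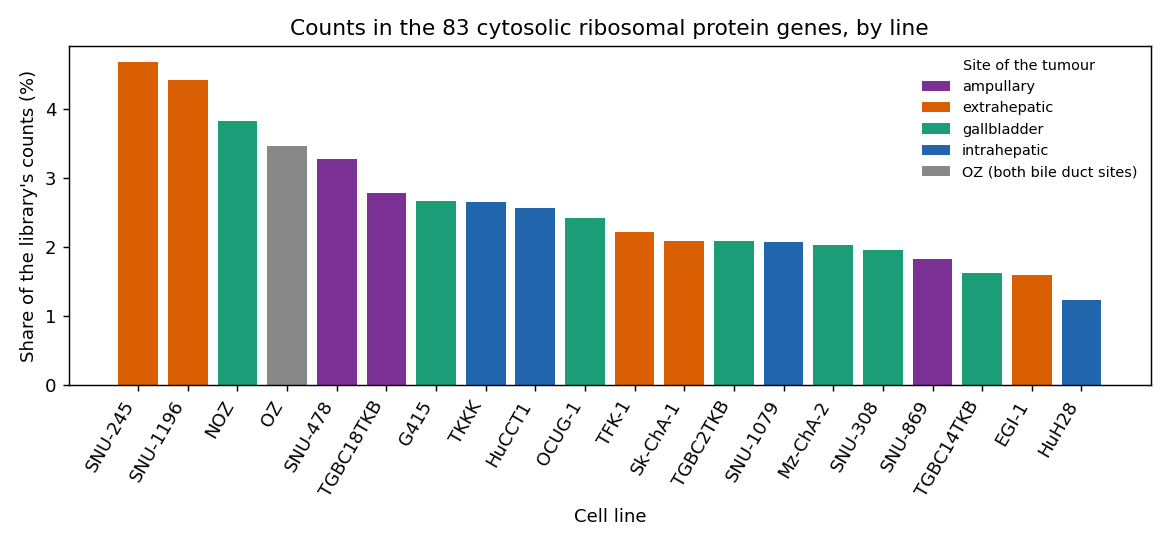
Share of each library's counts (%) that fell in the 83 cytosolic ribosomal protein genes, 1 bar per cell line, coloured by site. The bars fall from 4.68% in SNU-245 to 1.23% in HuH28, and extrahepatic lines stand near both ends.

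Core members moved together across lines. A common level was taken as the median over tested members of log2(CPM + 0.5) minus each gene's own median over lines. It ran from -0.62 in HuH28 and -0.57 in TGBC14TKB to 0.78 in NOZ and 0.86 in SNU-245. The mean of a line held 52.7% of the variance of core members around their gene means, and 70 of 76 core members had a Pearson r above 0.5 with the median of the other members. The median r between a pair of core members was 0.56 over the 20 lines. These correlations share libraries and scaling and are given as a description, without the share of other genes that reach such an r. RPL3, of the large subunit's core, and RPS14, of the small subunit's platform, had the highest r of all members, 0.94 and 0.92, and departures from the common level with an SD of 0.22 and 0.2. The median departure of large-subunit core members lay between -0.11 and 0.12 in every line, and that of small-subunit members between -0.15 and 0.18.

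Levels within the set spanned a wide range. By CPM, the highest medians over lines were those of RPL8 (998), RPS19 (757), RPS3 (757) and RPL4 (752). Per kb of coding length, RPL41, which encodes a very short peptide, led with 2516 CPM per kb, followed by RPS19 (1740), RPL37A (1725), RPLP1 (1480) and RPS21 (1461). Counts were per gene and not per coding part, so a short coding length raises this measure. RPL41 has 75 coding bases in a transcript of 699. The lowest core members by CPM were RPS28 (7.02), RPL21 (16.7), RPS26 (21.8), RPL9 (24.7) and RPS29 (25). Per kb, RPS28 had 33.9 CPM and RPL21 34.9, and the paralog RPL7L1 was lower still at 23.7. RPL10L, a testis paralog of RPL10, was at 0 counts in 18 lines with a maximum of 2.3 CPM in TGBC2TKB. RPL3L, a muscle paralog of RPL3, was at 0 in 17 lines and reached 0.137 CPM. A count of 0 allows up to 3 counts, or 0.195 to 0.287 CPM of the unscaled totals.

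The order of levels moved with how much coding sequence a gene shares with others. For each member, the share of 50-base stretches of its coding sequence that also occur in transcripts of other genes was counted in GENCODE 29. Pseudogenes were included among the other genes. The measure was chosen after levels had been seen. The 14 core members with under 10% shared had a median level of 1236 CPM per kb of coding length. Those with 10 to 50% shared (26 genes) had 633, those with 50 to 90% (22 genes) had 325, and those with 90% or over (14 genes) had 167. Spearman's rho between share and level was -0.65 over 76 genes, as a description. Counted over whole transcripts, the form tried first, rho was -0.23, so its size depends on that choice. RPL21 shared sequence with 61 pseudogenes and RPS26 with 26. RPL41 (2516) and RPL39 (827) were exceptions at 100% shared, both with a short coding length (75 and 153 bases) as divisor. The counting of reads with more than 1 possible origin is not described in the labels, so levels of RPS28, RPL21, RPS26, RPL9, RPS27 and RPL39 are uncertain, and the part of lost or shared reads in their order was not tested. The spread of departures had a rho of 0.17 with the same share.

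**Figure D2:**
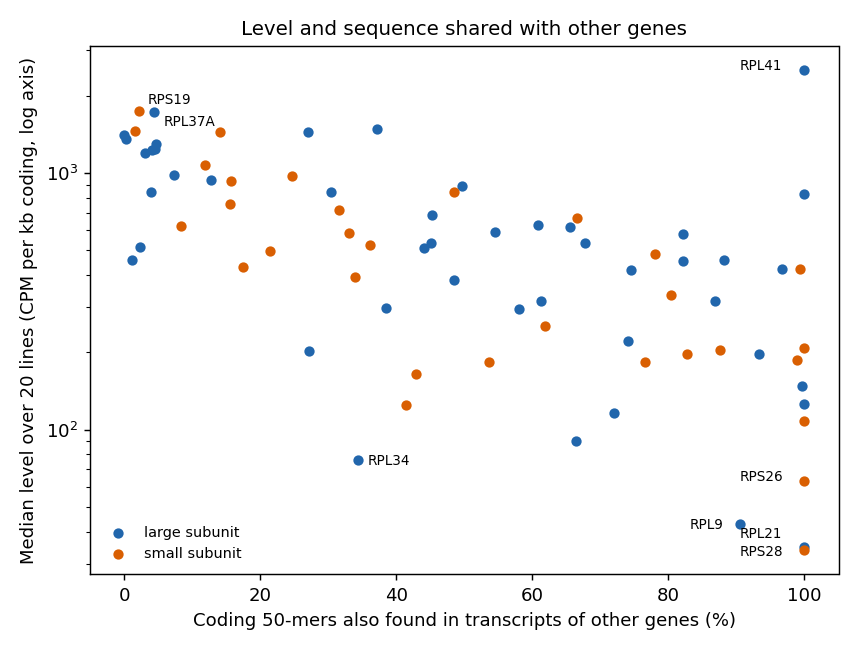
Median level over 20 lines (CPM per kb of coding length, log axis) against the share of coding 50-base stretches found in other genes (%), 1 point per core member. Members with little shared sequence (under 10%) have a median of 1236 CPM per kb and those with 90% or over shared have a median of 167, with RPL41 at 2516 and RPL39 at 827 above it.

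No member passed the test between sites or by origin. In edgeR's quasi-likelihood fits over all genes, 0 of 81 tested members passed a Benjamini-Hochberg adjusted p of 0.05 in any of the 6 comparisons. The share of all genes called was 0.00602% for ampullary lines against the other sites, 0% for extrahepatic, 0% for gallbladder and 0% for intrahepatic lines, 0.00602% in the joint test of the 4 sites and 0% for metastatic against primary lines. DESeq2 and limma-voom also called 0 members. Over all genes DESeq2 called 133, 188, 382, 267, 312 and 181 in the same order, and limma-voom 8, 0, 0, 3, 0 and 0. At an unadjusted p under 0.05 by edgeR there were 1, 7, 0, 2, 1 and 3 members, beside 873, 1164, 2051, 1574 and 1771 of 16615 genes in the site tests and 1147 of 14843 by origin. The median log2 difference of members was 0.02 in ampullary lines (all genes -0.10), 0.34 in extrahepatic lines (all genes -0.02; 65 of 81 members above 0), -0.08 in gallbladder lines (all genes 0.11) and -0.28 in intrahepatic lines (all genes 0.04; 70 of 81 below 0). It was 0.17 in metastatic lines (all genes -0.02; 60 of 81 above 0). Since members share the level of their line, these counts are not independent observations. The medians also moved with single lines. The extrahepatic one was 0.12 without SNU-245 (47 of 81 above 0) and 0.63 with repository as a covariate (76 above). The intrahepatic one was -0.16 without HuH28. That of metastatic lines was 0.05 without NOZ, 0.07 without OZ, 0.27 without SNU-245 and 0.40 with repository as a covariate. Those of ampullary and gallbladder lines, the closest to 0, changed sign with some lines left out.

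RPL9, a large-subunit protein, had the smallest p in 3 of these tests. Its CPM were 59.8, 37 and 74.9 in the ampullary lines SNU-478, SNU-869 and TGBC18TKB, and 26.9, 7.19, 12.2 and 9.44 in the intrahepatic lines HuCCT1, HuH28, SNU-1079 and TKKK. Lines of other sites reached into the ampullary range, with 58.7 CPM in SNU-245, 57.8 in SNU-1196 and 46.5 in EGI-1. Others reached into the intrahepatic range, with 9.45 in SNU-308 and 13.7 in TGBC14TKB. RPL9 was picked for its small p. How many other genes separate ampullary from intrahepatic lines was not counted. Against the other 3 sites RPL9 differed by a log2 of 1.21 ± 0.46 (SE) in ampullary lines and -1.46 ± 0.50 in intrahepatic lines, with edgeR adjusted p of 0.919 and 0.3104. The second member by p was RPLP2, an acidic stalk protein, in ampullary lines (0.60, adjusted p 0.9227 by edgeR) and RPS12 in intrahepatic lines (-0.80, 0.4955). RPL4 (1.00) and RPS27 (0.75) led in extrahepatic lines, each with an edgeR adjusted p of 0.5603. RPL26 differed by 0.63 in gallbladder lines (edgeR adjusted p 0.4399), and RPS15 by 0.50 in metastatic against primary lines (0.5978).

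Single genes left the common level in single lines. A departure is log2(CPM + 0.5) minus the gene's median over lines and minus the common level of the line, and was called at 1 or more on either side. With 1 library per line it has no test. Of 1620 member and line pairs, 40 (2.47%) were called above and 47 (2.9%) below. Over all genes with a median of at least 5 CPM, and without a common level taken off, 9.83% of pairs lay 1 or more above and 11.2% as far below. Without taking off the level, 13.2% of the members' pairs passed 1, beside 21% for all genes. The 5 tested restricted paralogs gave 31 of the 87 calls. Core members gave 28 above and 28 below, in 35 of 76 genes and 18 of 20 lines. SNU-478 and TGBC2TKB had no core call. Just inside the limit were RPS21 in SNU-308 (-1.01) and RPL39L in EGI-1 (1.01), and just outside RPS3 in HuH28 (-0.997) and RPL10 in TFK-1 (-0.989).

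**Figure D3:**
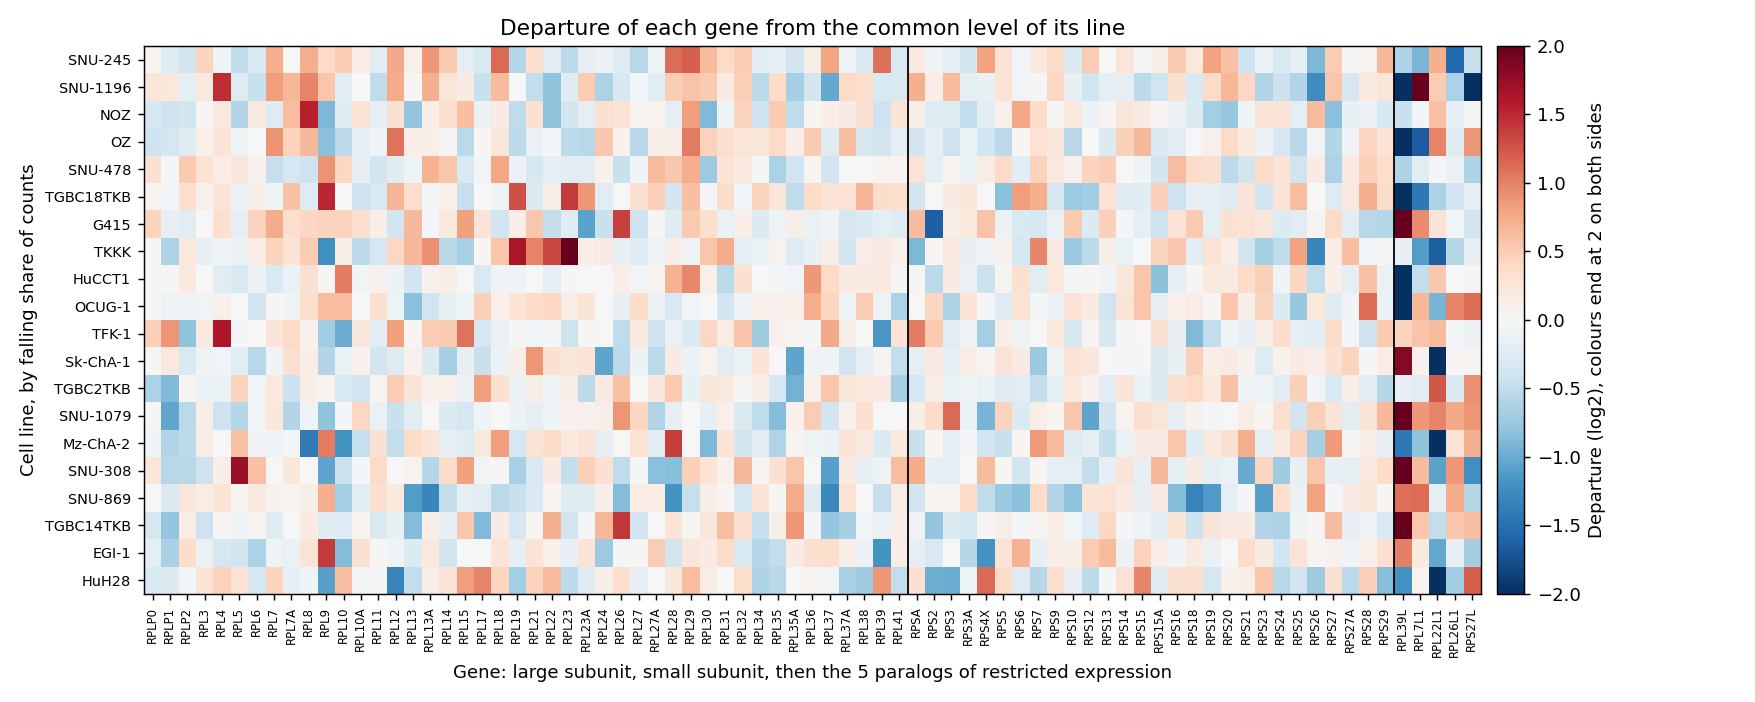
Departure of 77 of the 81 tested members (columns: large subunit, small subunit, restricted paralogs) from the common level of each line (rows, by falling share of counts), as log2 with colours ending at 2 on both sides. Most cells are pale; the paralogs at the right, RPL23 and RPL19 in TKKK and the blue row of SNU-869 stand out.

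The highest core departures came in genes whose neighbours on the chromosome were also high. RPL23, a large-subunit protein that can bind MDM2, had 2337 CPM in TKKK and 1699 in TGBC18TKB, against a median of 604 and 271 to 814 in the other 18 lines. Its departures were 2.06 and 1.40. RPL19, close to it on chromosome 17, departed by 1.63 in TKKK (1422 CPM) and 1.27 in TGBC18TKB (1266 CPM), against a median of 495 CPM. For each gene, up to 5 expressed non-members on each side were read as deviations from their own medians. Unlike for departures, no common level was taken off these deviations. In TKKK the median deviation was 2.04 around each gene, with STARD3 at 2.79, PGAP3 at 3.48, MED1 at 2.65 and CDK12 at 1.92, while CACNB1 stood at -0.6. The other genes of that whole chromosome had a median deviation of -0.03 in TKKK.

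RPL4, a large-subunit protein with a long loop near the exit tunnel, had 3297 CPM in SNU-1196 and 2213 CPM in TFK-1, against 421 to 1466 in the remaining 18 lines. Its departures were 1.47 and 1.61. Each of 10 neighbours was at least 0.5 above its median in both lines, among them the kinase gene MAP2K1 (1.14 and 2.39) and the TGF-beta mediator SMAD3 (1.26 and 1.20). RPL5, a partner of the 5S RNA, had 720 CPM in SNU-308 against a median of 264. It departed by 1.72, and its 10 neighbours had a median deviation of 1.78. RPL11, its partner in the 5S particle, had no called departure in any line. RPL8 departed by 1.55 in NOZ (4997 CPM) and -1.42 in Mz-ChA-2 (297 CPM), with neighbours at a median deviation of 1.28 and -1.28. RPL26, a regulator of p53 translation besides its ribosomal role, departed by 1.37 in G415 and 1.42 in TGBC14TKB (758 and 453 CPM against a median of 252), with neighbours at 1.05 and 1.62. RPL9 departed by 1.5 in TGBC18TKB, with neighbours at 0.43, and by 1.40 in EGI-1, with neighbours at 0.59.

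The low side was led by 1 line. SNU-869 held 8 of the 28 core calls below, among them RPS18 (29.4 CPM, -1.34), RPL13A (92.4 CPM, -1.31), RPL37 (100 CPM, -1.29), RPL28 (187 CPM, -1.20), RPS19 (310 CPM, -1.14), RPL13 (232 CPM, -1.12) and RPS23 (154 CPM, -1.08). RPL13A, RPL28 and RPS19 lie on chromosome 19. All 12 members there had a median departure of -0.80 in SNU-869, with 11 below 0. The 754 other genes of that chromosome had a median deviation of -0.56 in the line. RPL37 and RPS23 lie on chromosome 5, and the 10 neighbours of RPL37 had a median of -1.52, with DAB2 at -3.8. In other lines, RPL12 in HuH28 (11.3 CPM, -1.32) had neighbours at -0.55, and RPL9 in TKKK (9.44 CPM, -1.23) at -0.61.

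Over all core calls, the neighbour median was at least 0.5 on the same side in 40 of 56. For calls above it was 22 of 28, where 9.74% of all 1520 core pairs had such neighbours, and for calls below 18 of 28, where 10.3% did. The r between departure and neighbour median over those 1520 pairs was 0.64, as a description, since neighbouring members and lines recur. DNA copy number was not analysed here, and its part in these departures was not tested. Some core calls had no such neighbours. RPS2, a small-subunit protein at the messenger entry site, had 160 CPM in G415 against a median of 427 (-1.63), with neighbours at -0.33. RPS26, at 7.86 CPM in TKKK (-1.31) and 14.4 in SNU-1196 (-1.25), had neighbours at -0.05 and 0.16. RPL29 in SNU-245 (1053 CPM, 1.19) and RPS4X in HuH28 (563 CPM, 1.14) had neighbours at 0 and 0.02. Taking off the common level, 0.665 in SNU-1196 and -0.62 in HuH28, enlarged the departures of RPS26 and RPS4X there. It did not enter the neighbours' values. The medians of RPS26 and RPS4X over lines were 21.8 and 392 CPM.

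**Figure D4:**
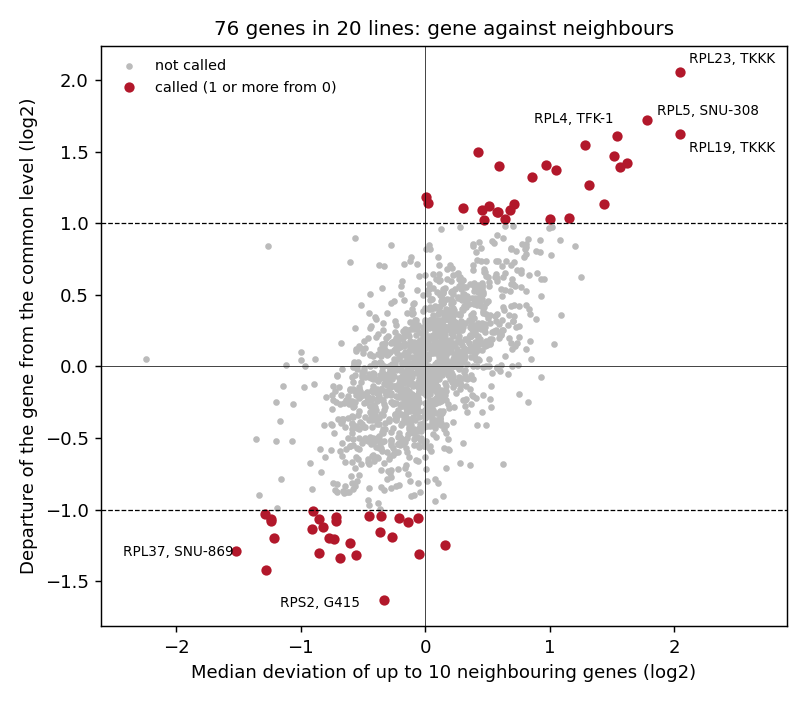
Departure of a core member from the common level (log2) against the median deviation of its neighbouring genes (log2), 1 point per gene and line (1520 points), with the 56 called pairs in red and dashed lines at 1 and -1. RPL23 and RPL19 in TKKK lie at the upper right with neighbours at 2.04, and RPS2 in G415 at the bottom with neighbours at -0.33.

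Read by role, the calls can be set beside those of all core members, 56 of 1520 pairs (3.68%). The 5 listed as recurrently mutated in cancers (RPL5, RPL10, RPL11, RPL22 and RPS15) had 3 above and 1 below in 100 pairs. The stalk, which recruits elongation factors, had 1 call in 60 pairs, RPLP1 in SNU-1079 (-1.04, 217 CPM).

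RPL39L and RPL22L1, 2 of the paralogs, varied most. The SD of log2 values over lines was 2.3 for RPL39L, 1.4 for RPL22L1, 1 for the core member RPL9 and 0.99 for RPL7L1, with the paralogs RPS27L at 0.8 and RPL26L1 at 0.57, against a median of 0.61 for tested members and 0.7 for all genes. The smallest were RPL22 (0.38) and RPL11 (0.42). Near the transcription start, the 4 short motifs marked below were matched in most core members and in 0 of 5 paralogs with a window. The sequences below show 20 bases before and 10 bases from the start, from RefSeq (GRCh38.p14), 5′ to 3′, for paralogs described next and, where given, their core members. Capitals mark 4 short pyrimidine motifs of the kind that opens these messages: the motif CTTTT, the motif CTTTC, the motif CCTTT and the motif CTCTT. A match to CCTTT or to CTCTT can overlap a match to CTTTT or to CTTTC.
RPL22: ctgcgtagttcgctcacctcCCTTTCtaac
RPL22L1: gaccgcgcggccgtagcttcctctctgctc
RPS27: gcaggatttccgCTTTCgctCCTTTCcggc
RPS27L: cccggaagttgatgccgagcgcagatcgct
RPL26: accggaagcagcgtgtagttCTCTTccctt
RPL26L1: caggcagtcttccaggggtcggcgaacgaa
RPL7L1: cgcgccggaagtgcggcgccgtagctagga
The windows lie at chr1:6199586-6199615 (minus strand) for RPL22, chr3:170870186-170870215 (minus) for RPL22L1, chr1:153990742-153990771 (plus) for RPS27, chr15:63157468-63157497 (minus) for RPS27L, chr17:8383184-8383213 (minus) for RPL26, chr5:172958709-172958738 (plus) for RPL26L1 and chr6:42879596-42879625 (plus) for RPL7L1.

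From 10 bases before to 20 after a start, at least 1 of the 4 motifs was found on the sense strand in 49 of 66 members with a window (74.2%). That was 49 of 61 core members (80.3%) and 0 of 5 paralogs. Among all 27305 genes of the table it was 14.5%, and among all 35116 windows 12%. On the opposite strand 6.06% of members and 11.3% of all genes held one. From 5 before to 15 after, 72.7% of members and 8.03% of windows held a motif, and from 2 before to 6 after, 54.5% and 3%. A match is a description of the letters, and no value of the series bears on translation. A window without a match can still open with pyrimidines, as that of RPL22L1 does from its start.

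RPL22L1, the paralog of the RNA-binding protein RPL22, ranged from 5.82 CPM in HuH28, 7.39 in Mz-ChA-2 and 8.5 in Sk-ChA-1 through a median of 46.7 to 132 in OZ and 136 in SNU-245. RPL22 itself lay between 122 and 255 CPM in 19 lines, with TKKK at 378. The ratio of RPL22L1 to RPL22 was 0.0346 in TKKK, 0.0354 in HuH28 and 0.738 in NOZ. Over 20 lines the levels of the pair had r = -0.12 (rho -0.13; permutation p 0.625 for r, adjusted 0.755 over 5 pairs). Without the 2 lines farthest from the median of RPL22, r was -0.11. After the common level was taken off both genes, an alternative to the main analysis of levels, r was -0.67 (rho -0.72; adjusted permutation p 0.0037 and 0.00275). The genes follow that level unequally, with a slope of 0.19 log2 per log2 for RPL22 and 2.09 for RPL22L1. Taking off the same level from both therefore leaves parts of it with opposite sign, so the alternative is no independent sign of an inverse relation. Within the 6 RIKEN lines the levels had r = -0.88 (exact permutation p 0.00972, adjusted 0.0417; rho -0.89, adjusted 0.167) and within the 6 KCLB lines 0.44 (exact permutation p 0.383, adjusted 0.63).

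RPL39L, a paralog of RPL39 known from testis and cancer cells, was at 0 counts in HuCCT1, OCUG-1, OZ, SNU-1196 and TGBC18TKB. It had 52.5 CPM in TGBC14TKB, 32.8 in G415, 31.9 in SNU-308, 30.2 in SNU-1079 and 23 in Sk-ChA-1, and between 1.46 and 12.9 in the other 10 lines. No coding 50-base stretch of RPL39L occurred in another gene. Of the 4 lines at 30 or more, 3 were gallbladder lines and SNU-1079 an intrahepatic one. The remaining gallbladder lines were low, with 0 CPM in OCUG-1, 1.56 in Mz-ChA-2, 4.85 in TGBC2TKB and 8.25 in NOZ. RPL39 ranged from 38.6 CPM in EGI-1 to 493 in SNU-245, and the pair had r = -0.29 (permutation p 0.226, adjusted 0.564) and rho = -0.50 (p 0.0246, adjusted 0.123). Without the 2 lines farthest from the median of RPL39, r was -0.49 (permutation p 0.0409, adjusted 0.205). Within the RIKEN lines r was -0.83 (exact permutation p 0.0167, adjusted 0.0417), and within the KCLB lines -0.31 (adjusted 0.63).

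RPS27L, which is known as a p53 target, ranged from 14.5 CPM in SNU-308 and 15.6 in SNU-1196 to 94.4 in OCUG-1 and 114 in OZ. It exceeded RPS27 in CPM in the median line, at a ratio of 1.43, in genes of the same coding length (252 bases). RPS27, but not RPS27L, shares all its coding stretches with other genes, so that ratio is uncertain. RPL26L1 stayed between 5.82 CPM in HuH28 and 31.8 in OCUG-1, a median of 0.0516 times RPL26. RPL7L1, whose product takes part in ribosome assembly, lay between 6.85 and 41.4 CPM in 19 lines and at 132 in SNU-1196. There its departure was 2.16, and its 10 neighbours had a median of 2.78. Of the 31 paralog calls, 7 had neighbours at least 0.5 on the same side. The levels of these pairs had r of -0.08 for RPS27 and RPS27L, 0.09 for RPL26 and RPL26L1, and 0.32 for RPL7 and RPL7L1 (adjusted permutation p 0.755, 0.755 and 0.564).

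**Figure D5:**
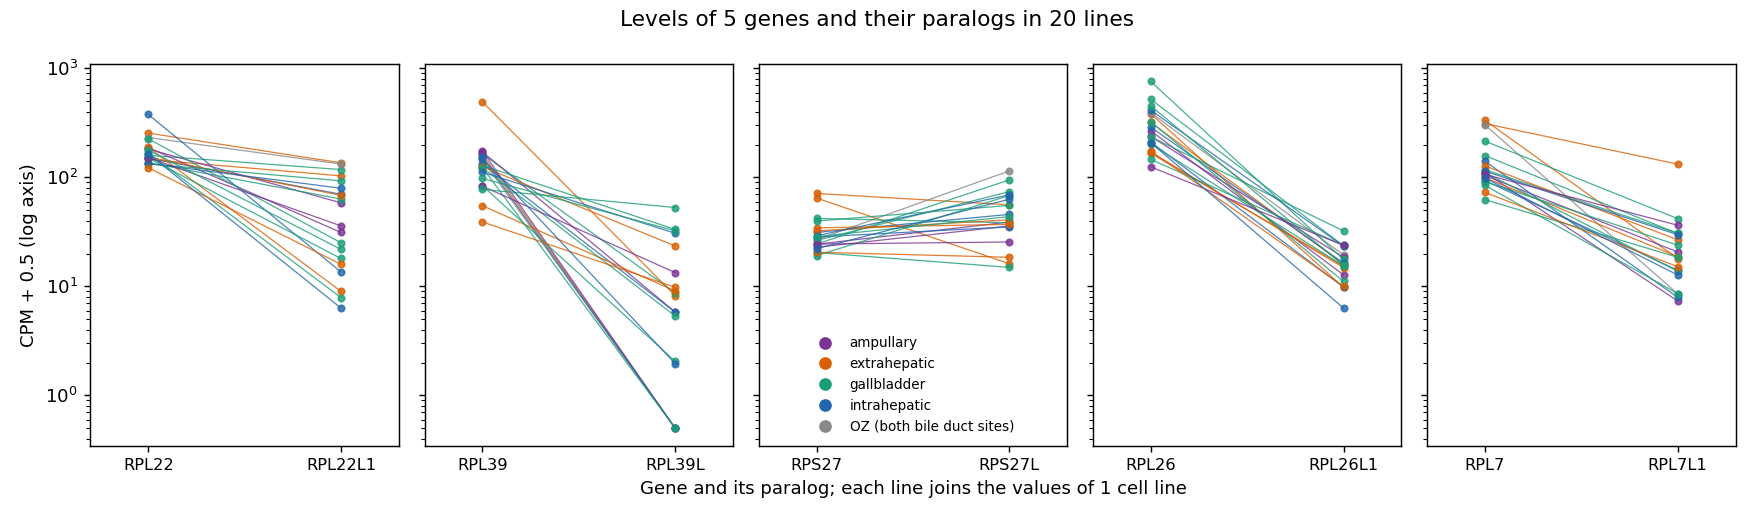
CPM + 0.5 (log axis) of 5 core members and their paralogs, with each cell line's pair of values joined and coloured by site. RPL39L falls to the 0-count level in 5 lines, RPL22L1 spreads from 5.82 to 136 CPM while RPL22 stays mostly near 162, and RPS27L mostly lies above RPS27.

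Other genes were then fitted along the common level with edgeR. Members were left out of the count, since they define the level. Of 11889 other genes, 39 passed (0.328%), 27 higher and 12 lower where the members were high. The list of elongation factors and other messages with a pyrimidine start had 6 of 15 called, all higher: EIF3E and EIF3H, subunits of initiation factor 3, EEF1B2 and EEF1D, which reload elongation factor 1A, the poly(A)-binding PABPC1, and BTF3. Its median slope was 0.90 log2 per log2, with 14 of 15 above 0, where all other genes had -0.04. Of ribosome biogenesis genes, 2 of 21 were called higher, the rRNA methyltransferase FBL and BOP1 (median slope 0.35, 18 above 0). None of 12 further initiation factors (median 0.32) or 10 growth regulators (-0.14) passed. Nor did any of 77 mitochondrial ribosomal protein genes (0.43, 71 above 0) or the 4 ribosomal genes outside the rule (0.79). The initiation factor genes EIF3F, EIF4A2 and EIF4B, like EIF3E and EIF3H, were counted in the elongation list instead. MYC, which drives ribosome production, had a slope of 1.73 with an edgeR adjusted p of 0.2469. Of the 27 higher genes, 9 lie on chromosome 8 (EIF3E, EIF3H, EEF1D, PABPC1, BOP1, TOP1MT, TRIB1, GFUS and COX6C), or 33.3% against 3.3% of tested genes. RPL7, RPL8, RPL30 and RPS20 are also there. A level from the 79 members elsewhere had r = 0.998 with the common level. That 36 of the 39 were still called along it is therefore no separate check. The part of chromosome 8 in these calls was not tested.

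ETFRF1, a regulator of a mitochondrial electron carrier, had the smallest p. It was at 779 CPM in SNU-245, 270 in NOZ and 234 in SNU-1196, which are also the 3 lines with the largest share of counts in members. The other 17 lines had at most 31.8 CPM. Its slope was 4.07 ± 0.47 (SE; edgeR adjusted p 0.0002775), and 3.39 (adjusted p 0.00664) without SNU-245. EIF3E, with a slope of 1.41 ± 0.21 (adjusted p 0.0021 by edgeR), ran from 135 CPM in Mz-ChA-2 to 950 in NOZ. The 10 rising genes of smallest p also included TOP1MT, PABPC3, ACY1, SNHG17, EIF3H, TRIB1 and 1 entry without a symbol. PABPC3 is a near copy of PABPC1 and may take its reads.

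Genes that fell were led by the ubiquitin ligase MIB1 (slope -1.92 ± 0.34 SE, edgeR adjusted p 0.007792) and the laminin chain LAMC1 (-2.09 ± 0.38 SE, adjusted p 0.007792 by edgeR). MIB1 had 31.8 CPM in SNU-1196 and 32.1 in NOZ, and 260 in SNU-308. LAMC1 had 72.5 CPM in SNU-245 and 1709 in HuH28, the line of lowest level, and did not pass without HuH28 (edgeR adjusted p 0.059). ICAM1, an adhesion receptor, had 0.392 CPM in SNU-245 and 2585 in HuH28. It fell by 4.42 per log2 (edgeR adjusted p 0.0178), with an adjusted p of 0.28 without HuH28. HuH28 is also the line lowest in EPCAM and KRT19 and highest in COL1A1, COL3A1 and DCN given above, and their part in these slopes was not tested. LAMP2, PIGS, ZFYVE9, MASP2, RHOBTB1 and SCAMP3 were also among the 10 falling genes of smallest p.

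With the repository of the lines as a covariate 0 of the 39 genes passed (ETFRF1 and EIF3E each had an edgeR adjusted p of 0.0588, with slopes of 3.80 and 1.34). Without NOZ 11 genes were called higher and 5 lower, and 14 of the 39 were still called. Without SNU-245 it was 12 and 7 with 15 still called, without SNU-1196 17 and 7 with 21, without HuH28 19 and 7 with 20, and without TGBC14TKB 33 and 20 with 31. Of the 6 called genes of the elongation list, EIF3E alone passed without each of NOZ, SNU-245, SNU-1196 and HuH28 in turn (edgeR adjusted p 0.0158, 0.0226, 0.00739 and 0.00301).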

How the data were processed

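Per the labels' protocols, total RNA was made into stranded mRNA libraries. The authors deposited 1 table of raw read counts per gene. Per the submitters' processing notes, Trimmomatic, TopHat2 2.0.8, Picard 1.69 and featureCounts were used with hg19; the labels name no setting for strand or multi-mapped reads. Symbols came from a RefSeq gene table (23512 entries) and GENCODE (354); 356 entries with 0.49% of counts had none. That gene table is of another build and served for names and gene order only; start windows came from a separate RefSeq table of GRCh38.p14 and carry its coordinates.

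The members and lists were chosen with earlier results of these data known. Counts were scaled by TMM and fitted over all genes with edgeR 4.0.16 (robust quasi-likelihood, filterByExpr, two-sided, Benjamini-Hochberg), tested first on simulated counts. Site fits used 19 lines and origin fits 20. DESeq2 1.42.0 and limma 3.58.1 were alternatives. DSMZ and Zurich lines were merged where repository was a covariate. Correlations used 100000 permutations, or exact ones for 6 lines, over the 5 of 8 planned pairs with enough counts. Named genes are the 10 largest departures each way, both genes of each pair, the 5 highest and lowest members, the 3 most and least variable, the 2 of smallest p per contrast, and the 10 of smallest p each way along the level. RPL3, RPS14, RPL11, MYC, the listed neighbours and further calls were named after their values were seen, as were the 50-base measure, the motifs and the views by chromosome. Some genes that met the rule are not reported here. Replicate numbers follow deposition order.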

Additional observations from a re-analysis of the deposited data

Results flagged for a closer look

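Shares of counts and the genes of the paralog pairs were examined for a single line far from the others of its site, in 33 sets of 4 to 7 lines, where chance alone marks about 1 in 20. RPL7L1 had 132 CPM in SNU-1196, far above the other extrahepatic lines. RPL39 had 493 CPM in SNU-245, also among extrahepatic lines. RPL22 had 378 CPM in TKKK, far above the other intrahepatic lines.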

How the results depend on the processing

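Members called between sites or by origin stayed at 0 under every alternative, each line left out in turn included (0 to 0). Along the common level, leaving out 1 line gave 11 to 33 genes called higher and 5 to 20 lower. Repository as a covariate gave 0 and 0, and no count filter gave 190 and 583. A level from members with little shared sequence, added after the data were seen, gave 27 higher and 6 lower. Departures above and below numbered 83 and 82 at a limit of 0.8, 12 and 13 at 1.5, 121 and 93 without the common level taken off, and 13 and 8 when also beyond 3 scaled median absolute deviations. Without the paralogs, an alternative also added later, 28 lay below. Signs reversed for RPS27 and RPS27L (r 0.16 without the 2 farthest lines, 0.16 within KCLB), RPL26 and RPL26L1 (-0.05 without the 2 farthest lines, -0.57 within KCLB) and RPL22 and RPL22L1 (0.44 within KCLB). The causes were not tested. No paired analysis was possible because replicate numbers follow deposition order only. With 1 library per line, departures have no replicate check, and multi-mapped reads limit the levels of members with many pseudogenes.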
